A study of Mus musculus with 6 samples.

Results

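Interferon-stimulated genes are the transcripts that cells switch on after an interferon signal, and 9 of them were followed here in the cerebral cortex of mice: Isg15, Irf7, Irf9, Stat2, Oasl2, Usp18, Bst2, Ifitm3 and Rtp4. The 9 were chosen by name, with earlier results of these data known, and each matched 1 of the 54532 rows of the deposited table. Bulk RNA of 12-month-old cortex made up 6 libraries, 3 wild-type (WT) and 3 labelled Fam69c KO, the knockout of a kinase-like gene of the secretory pathway. Mice of the KO group are written Fam69c-/- in the series' design, while strain, sex and the making of the allele were not given. Whether the 3 libraries of a group are 3 mice is not stated, so p-values measure only the spread between these libraries, which may be technical.

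Type I interferons bind the receptor pair IFNAR1 and IFNAR2, whose kinases JAK1 and TYK2 phosphorylate STAT2. With IRF9, STAT2 forms part of the complex ISGF3, which enters the nucleus and binds the interferon-stimulated response element (ISRE) in the promoters of its target genes. The targets include brakes such as USP18, the feed-forward factor IRF7 and antiviral effectors. In brain, microglia, other glia and endothelium carry a low level of this programme at rest. It rises with viral infection and in several models of ageing and neurodegeneration.

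All 9 genes were detected in every library at low to moderate levels, and none differed between the groups beyond the spread of the libraries. Each mean was nominally higher in the KO-labelled libraries, by a ratio of 1.02 for Bst2 to 1.55 for Usp18, and for every one of the 9 the groups overlapped. KO-labelled replicate 3 was the highest of the 6 libraries for 6 of the 9. Without that library the median log2 fold change of the 6 genes that entered the test went from 0.16 to 0.05.

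The promoters of 4 of the 9 genes are shown because they carry the letters of the response element that ISGF3 reads. Windows of 300 bases, 250 before and 50 from the start of transcription on, were taken from RefSeq on build GRCm38.p6, and 7 of the 9 genes had one. Both strands were searched for the core of the element, GAAA followed by any 2 bases and GAAA again, with no mismatch. Every base of a match is in capitals, with overlapping matches running together. The sequences run along each gene's own strand, and distances count from the start base as 0. Isg15 lies on the minus strand with its window at chr4:156200769-156201068, Bst2 on the minus strand at chr8:71537423-71537722, Ifitm3 on the minus strand at chr7:141010695-141010994, and Stat2 on the plus strand at chr10:128270248-128270547.
Isg15: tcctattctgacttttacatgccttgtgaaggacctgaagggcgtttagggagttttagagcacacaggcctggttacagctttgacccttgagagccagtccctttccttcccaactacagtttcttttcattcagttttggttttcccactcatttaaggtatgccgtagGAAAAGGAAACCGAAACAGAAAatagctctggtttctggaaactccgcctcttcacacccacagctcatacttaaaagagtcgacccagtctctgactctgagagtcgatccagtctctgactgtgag
Bst2: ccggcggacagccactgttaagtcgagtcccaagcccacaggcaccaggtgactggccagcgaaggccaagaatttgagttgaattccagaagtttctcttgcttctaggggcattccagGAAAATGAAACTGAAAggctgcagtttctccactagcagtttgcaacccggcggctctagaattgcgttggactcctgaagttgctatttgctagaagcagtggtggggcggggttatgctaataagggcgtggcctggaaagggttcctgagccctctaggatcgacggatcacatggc
Ifitm3: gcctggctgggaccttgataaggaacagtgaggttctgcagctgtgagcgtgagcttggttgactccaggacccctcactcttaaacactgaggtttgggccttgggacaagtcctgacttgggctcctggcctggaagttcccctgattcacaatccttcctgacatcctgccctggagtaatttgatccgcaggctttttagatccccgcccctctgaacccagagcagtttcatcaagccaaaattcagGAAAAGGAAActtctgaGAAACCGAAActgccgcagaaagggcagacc
Stat2: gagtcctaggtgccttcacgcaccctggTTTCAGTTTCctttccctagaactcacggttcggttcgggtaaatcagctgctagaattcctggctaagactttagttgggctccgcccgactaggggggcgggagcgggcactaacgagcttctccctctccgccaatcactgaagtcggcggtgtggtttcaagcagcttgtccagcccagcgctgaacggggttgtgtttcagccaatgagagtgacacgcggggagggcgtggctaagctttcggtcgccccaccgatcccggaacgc

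The core occurred in 4 of the 7 genes with a window, against matches in 3.44% of all 32851 windows of this length and in 3.99% of the 27025 genes that have one. Isg15 held 3 overlapping matches from -78 to -57, and Bst2 held 2 overlapping matches from -130 to -115. Ifitm3 had its 2 matches after the start, at 2 to 11 and 19 to 28, and Stat2 had 1 match on the opposite strand, far upstream at -222 to -213. The windows of Irf7, Irf9 (2 windows) and Oasl2 held no match, which says only that these letters are not in these windows. Of the genes with a window, only Isg15 had the same start in RefSeq and in the deposited table. The Irf9 windows begin at 55603735 and 55604329, which lie inside the deposited gene. The bases before the deposited start of Irf9 were therefore not searched. The gamma-activated site TTCNNNGAA, an element of interferon gamma signalling, is a palindrome in its fixed letters and was found once in Bst2, overlapping the first ISRE match, and once in Ifitm3, overlapping the second, against 8.30% of all windows. Of 83 other interferon pathway genes with a window, 29 held the ISRE core, among them 4 of the 5 IFIT genes and 6 of 7 interferon gamma-induced genes.

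**Figure D1:**
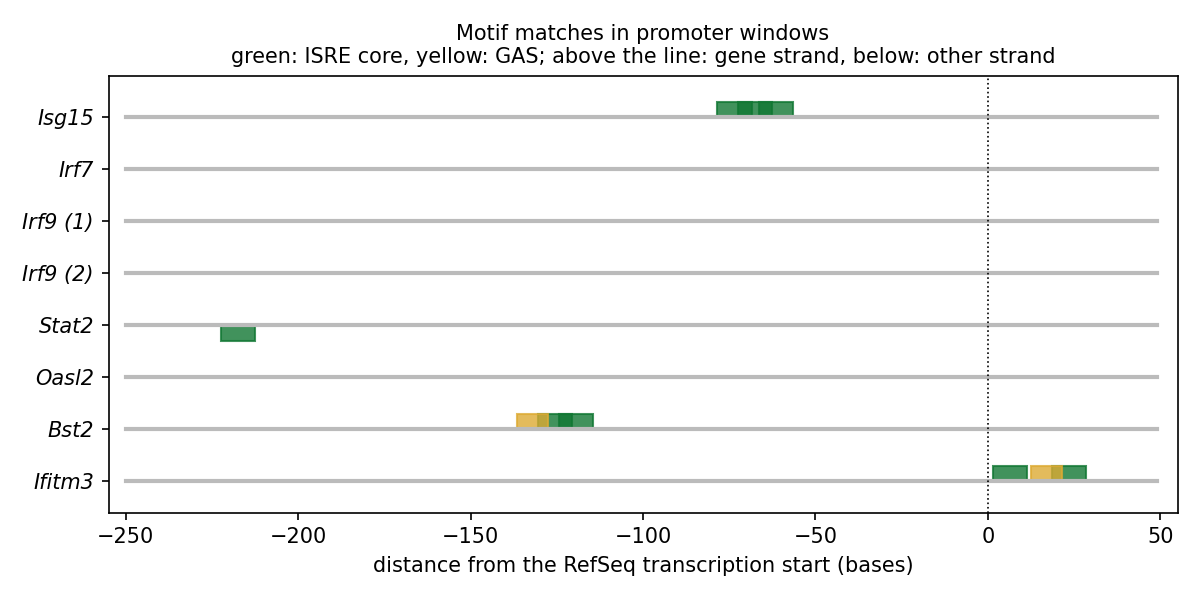
Positions of exact motif matches in the promoter windows of 7 interferon-stimulated genes, as distance in bases from the RefSeq start of transcription (dotted line); green boxes are the ISRE core and yellow boxes the gamma-activated site, drawn above the line for the gene's strand and below it for the other strand. Isg15 and Bst2 carry runs of overlapping ISRE cores before the start, Ifitm3 carries 2 after it, Stat2 carries 1 at -222 to -213, and the windows of Irf7, Irf9 and Oasl2 are empty.

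Levels are given as deposited FPKM, which scales reads by the length of the gene model and the depth of the library, and as mean ± SD over 3 libraries. Depth was 30935326 to 35065884 reads per library, recovered from the values. Multiplied by gene length and summed, the values came to 0.979 (KO-labelled replicate 3) to 1.01 (WT replicate 1) times what that depth alone gives. The deposited FPKM thus carry a small further factor per library. The level of Fam69c itself was 1.89 ± 0.285 FPKM in WT against 1.60 ± 0.216 FPKM in the KO-labelled libraries (SD, n = 3 each, overlapping), so its RNA does not check the labels and directions below are between libraries as labelled. In GENCODE M21 the exons of Fam69c share 1338 of 5466 bases with D030046N08Rik on the opposite strand. The deposited model of Fam69c is 2662 bases long, so how much of the overlap was counted is uncertain. WT replicate 3 and KO-labelled replicate 1 stood apart in genes of striatal neurons, whose summed level over 7 markers was 100.5 and 140.6 FPKM there, and as high as 291.7 FPKM in the other libraries. Cortical excitatory neuron markers were present throughout, at 807 to 853 FPKM summed over 6 genes in WT and 810 to 841 FPKM in the KO-labelled libraries.

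In WT cortex the levels per length ran from Ifitm3 at 9.84 ± 1.75 FPKM through Stat2 (4.22 ± 0.598), Bst2 (2.97 ± 1.16), Isg15 (1.76 ± 0.157), Irf9 (1.74 ± 0.407), Rtp4 (0.704 ± 0.155), Irf7 (0.417 ± 0.118) and Oasl2 (0.415 ± 0.0772) to Usp18 at 0.259 ± 0.142 FPKM. Neighbours in this order whose WT libraries overlapped were Stat2 and Bst2, Isg15 and Irf9, Irf7 and Oasl2, and Oasl2 and Usp18. The 6 genes from Ifitm3 to Rtp4 had a mean of at least 0.5 FPKM over the 6 libraries and entered the test with 15694 genes. Irf7, Oasl2 and Usp18 lay below that minimum and were read from the same fit without a minimum, over 32400 genes.

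Stat2, Irf9 and Irf7 carry the signal in the nucleus. Stat2 (ENSMUSG00000040033, mm10 chromosome 10, 128270559 to 128292849, plus strand), the STAT protein that binds IRF9 in ISGF3, read 4.13, 3.67 and 4.85 FPKM in WT replicates 1, 2 and 3 and 3.99, 4.37 and 4.81 FPKM in the KO-labelled replicates. The groups covered almost the same range, and replicate 3 was the highest library on each side. On log2(FPKM + 0.5), KO-labelled minus WT, the difference (log2 fold change) was 0.06 (95% confidence interval, CI, -0.20 to 0.32), from 667 to 1021 reads per library.

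Irf9 (ENSMUSG00000002325, chromosome 14, 55603571 to 55610030, plus strand), the DNA-binding part of ISGF3, read 1.48, 1.52 and 2.21 FPKM in WT against 1.59, 2.15 and 2.80 FPKM in the KO-labelled libraries. KO-labelled replicate 3 was above every WT library, KO-labelled replicate 2 lay below the highest WT library, and KO-labelled replicate 1 lay between WT replicates 2 and 3. That gave a log2 fold change of 0.25 (95% CI -0.21 to 0.72), with a limma p of 0.999 after adjustment over all genes by Benjamini-Hochberg. With 249 to 540 reads per library, counting alone would give a coefficient of variation of 5.79% in WT and 4.97% in the KO-labelled libraries, and the measured values were 23.4% and 27.8%. In GENCODE M21 its exons share 123 bases with those of Rnf31, a gene on the same strand, out of 5386, so a small share of its reads could be assigned to either.

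Irf7 (ENSMUSG00000025498, chromosome 7, 141262706 to 141266481, minus strand), the factor that amplifies interferon production once induced, read 0.339, 0.552 and 0.359 FPKM in WT against 0.445, 0.397 and 0.688 FPKM in the KO-labelled libraries. The highest values on the 2 sides came from WT replicate 2 and KO-labelled replicate 3, and the other 4 libraries lay between 0.339 and 0.445 FPKM. In the fit without a minimum its log2 fold change was 0.14 (95% CI -0.26 to 0.53), from 40 to 93 reads per library, and 0.01 without KO-labelled replicate 3. Its exons share 45 bases with Phrf1, a gene on the opposite strand, and no source used here says whether counting used strand.

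Isg15 (ENSMUSG00000035692, chromosome 4, 156199424 to 156200818, minus strand) encodes a ubiquitin-like protein that is attached to other proteins after interferon, and Usp18 (ENSMUSG00000030107, chromosome 6, 121245906 to 121270917, plus strand) encodes the protease that removes it and also blocks the interferon receptor. Isg15 read 1.91, 1.59 and 1.79 FPKM in WT against 1.64, 2.06 and 2.81 FPKM in the KO-labelled libraries. Its WT values were tight, with a coefficient of variation of 8.92% against 15.4% from counting alone, while the KO-labelled libraries spread by 27.3% against 13.3%. KO-labelled replicates 2 and 3 were above all 3 WT libraries and KO-labelled replicate 1 was not. A log2 fold change of 0.22 (95% CI -0.17 to 0.60; limma adjusted p = 0.999) came from 37 to 76 reads per library.

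Usp18 had the largest ratio of means and the fewest reads, 14 to 51 per library. It read 0.207, 0.420 and 0.151 FPKM in WT against 0.285, 0.408 and 0.510 FPKM in the KO-labelled libraries. WT replicate 2 lay within the KO-labelled values, and the other WT libraries lay below all of them. Fitted without a minimum, its log2 fold change was 0.26 (95% CI -0.15 to 0.66; limma adjusted p = 0.959). On the recovered reads, with voom and no minimum, it was 0.74, since the added 0.5 FPKM holds down fold changes of low genes, and the adjusted p was 0.947. Its exons share 124 bases with Gm44148 on the opposite strand, whose mean level was 0.0810 FPKM.

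Among the effectors, Oasl2 (ENSMUSG00000029561, chromosome 5, 114896936 to 114912234, plus strand), an oligoadenylate synthetase-like protein of RNA defence, read 0.352, 0.501 and 0.393 FPKM in WT against 0.319, 0.616 and 0.583 FPKM in the KO-labelled libraries. KO-labelled replicate 1 was the lowest of all 6 libraries and the other KO-labelled libraries were the 2 highest. The log2 fold change without a minimum was 0.13 (95% CI -0.26 to 0.51).

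Ifitm3 (ENSMUSG00000025492, chromosome 7, 141009586 to 141010770, minus strand), a membrane protein that blocks virus entry at endosomes, read 9.21, 11.8 and 8.49 FPKM in WT against 10.7, 9.60 and 11.9 FPKM in the KO-labelled libraries. WT replicate 2 and KO-labelled replicate 3 were highest and nearly equal, and the remaining libraries ran together. The groups differed by a log2 fold change of 0.13 (95% CI -0.18 to 0.44). Ifitm3 belongs to a cluster of similar genes, so reads may be split among copies. Its relatives Ifitm2, at 5.34 ± 0.558 and 5.27 ± 0.737 FPKM, and Ifitm1, at 0.734 ± 0.244 and 0.790 ± 0.234 FPKM, also overlapped between the groups.

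Bst2 (ENSMUSG00000046718, chromosome 8, 71534255 to 71537456, minus strand), which encodes tetherin, a protein that holds budding virus on the cell surface, read 2.02, 4.26 and 2.64 FPKM in WT against 2.74, 3.15 and 3.18 FPKM in the KO-labelled libraries. The WT libraries held the lowest and the highest value, a coefficient of variation of 38.9% against 10.9% from counting, and the KO-labelled libraries lay close together at 8.13%. Its log2 fold change was 0.07 (95% CI -0.45 to 0.59), the widest of the 6 genes tested, and it turned to -0.13 without WT replicate 1.

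Rtp4 (ENSMUSG00000033355, chromosome 16, 23520291 to 23614222, plus strand), a chaperone of G protein-coupled receptors that interferon induces, read 0.676, 0.872 and 0.566 FPKM in WT against 0.651, 0.872 and 1.14 FPKM in the KO-labelled libraries. WT replicate 2 and KO-labelled replicate 2 were equal to 3 digits, and KO-labelled replicate 3 was above all others. The difference was a log2 fold change of 0.20 (95% CI -0.21 to 0.60), from 40 to 87 reads per library. Its exons share 296 of 2131 bases with Gm45338 on the same strand, whose mean level was 0.129 FPKM.

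**Figure D2:**
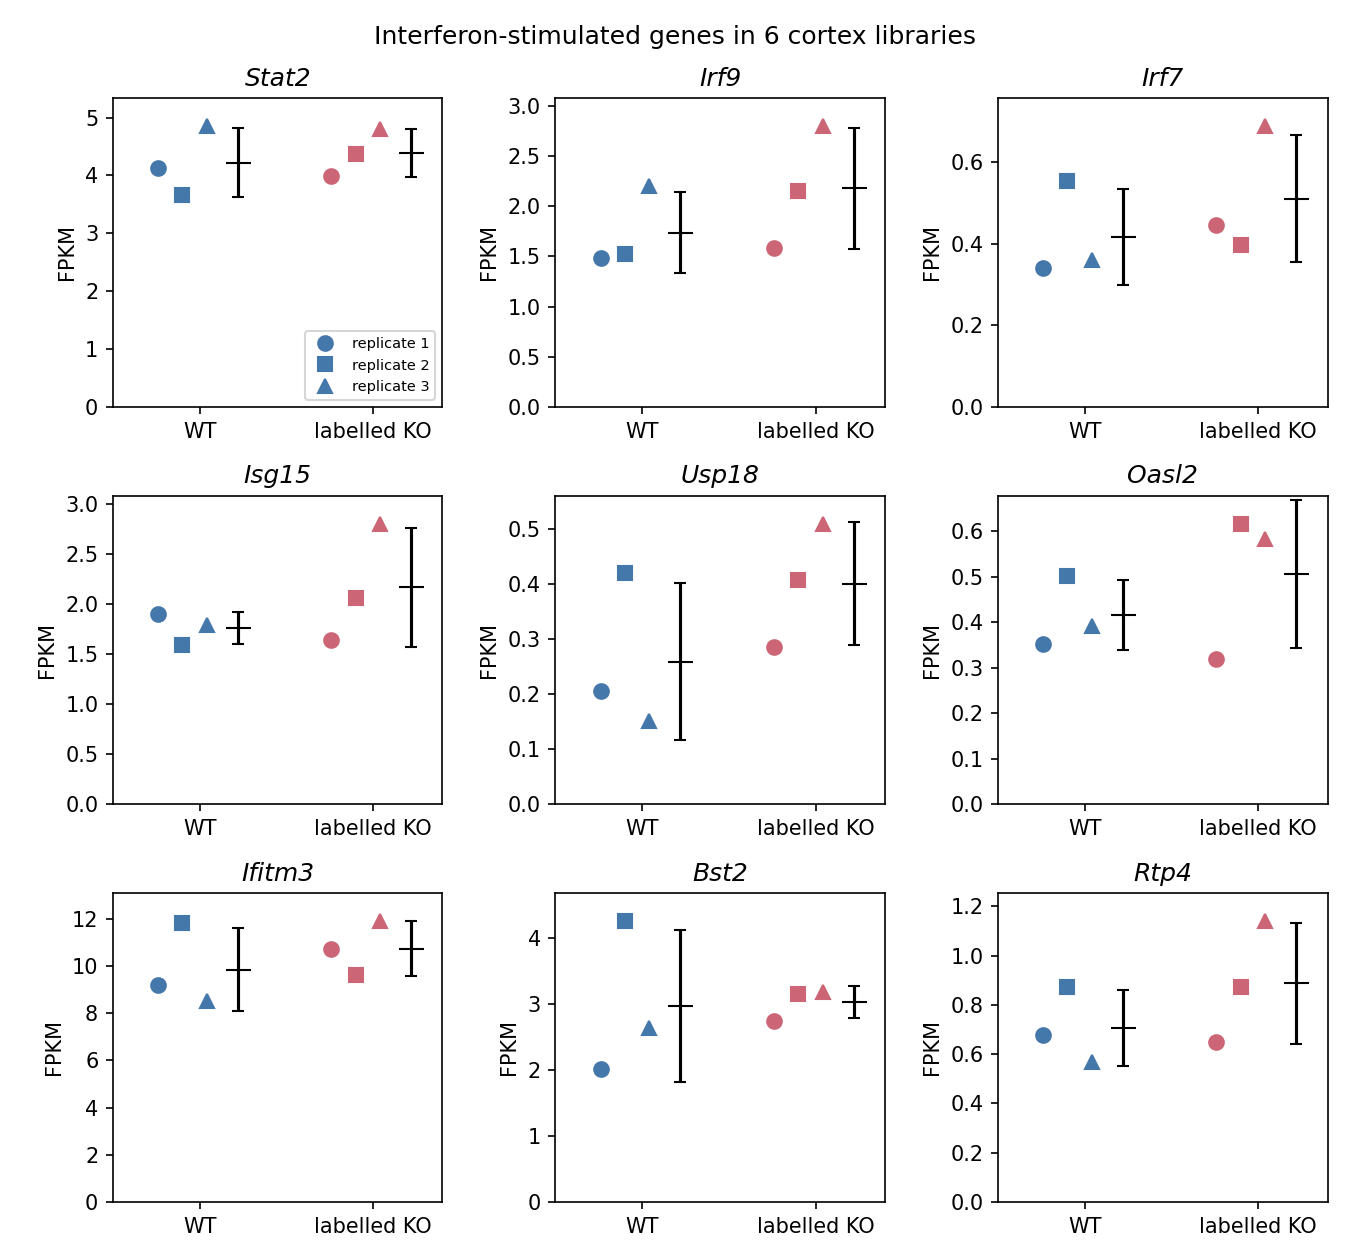
FPKM of 9 interferon-stimulated genes in each of 6 libraries, WT in blue and KO-labelled in red, with circle, square and triangle for replicates 1, 2 and 3 and black bars for mean ± SD (n = 3 each). The groups overlap in every panel, and the red triangle, KO-labelled replicate 3, is the highest point in 6 of the 9.

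By limma, 0 of the 6 tested genes passed an adjusted p of 0.05, against 0 of 15694 genes in all (0%), and 0 of the 6 had an unadjusted p under 0.05, against 599 of all genes (3.82%). At other settings 1 or 2 did, 2 without WT replicate 2 (Bst2 and Ifitm3) and 1 each without KO-labelled replicate 1 (Isg15), with sample weights and with the replicate block (both Irf9), and without WT replicate 3 and KO-labelled replicate 1 together (Irf9). Voom on the recovered reads gave 0 of the 6 and 0 of all genes past the adjusted threshold. Without a minimum, 0 of the 9 passed in either, against 0 of 32400 genes by limma and 1 (0.00309%) by voom. The mean was higher in the KO-labelled libraries for 9 of 9 genes, where 49.8% of the 32400 genes above 0 in any library were higher. The groups did not overlap for 0 of 9, where 7.77% of those genes did not overlap. The median log2 fold change of the 6 tested genes was 0.16 and that of all genes tested was -0.0042. The 9 genes are targets of 1 signal and their levels share the same 6 libraries, so their common direction is not 9 separate observations. They were also chosen with earlier results of these data known, so the comparison with all genes is not independent of the choice.

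**Figure D3:**
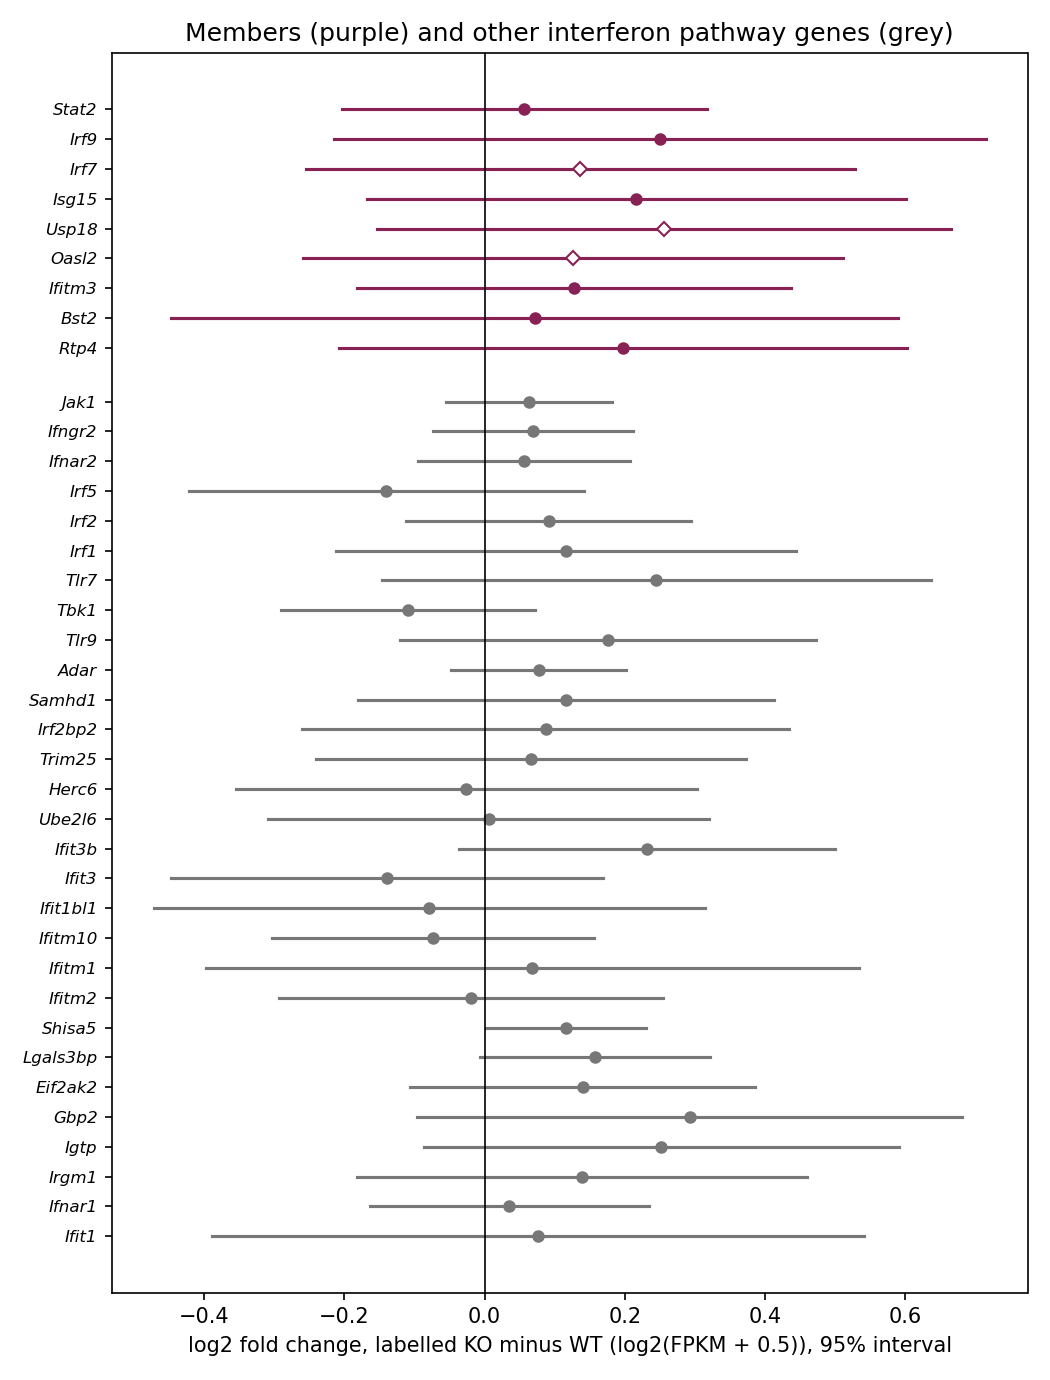
Log2 fold change, KO-labelled minus WT on log2(FPKM + 0.5), with 95% confidence intervals (CI) for the 9 interferon-stimulated genes (purple; open diamonds are the 3 genes fitted without a minimum) and for other named interferon pathway genes past the minimum (grey). Of these intervals, that of Shisa5 alone lies wholly above 0, at an unadjusted p of 0.047.

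Within WT, replicate 2 was the highest for 6 of the 9 genes, namely Irf7, Usp18, Oasl2, Bst2, Ifitm3 and Rtp4. Stat2 and Irf9 instead were highest in WT replicate 3, and Isg15 in WT replicate 1. Within the KO-labelled libraries, replicate 3 was the highest for 8 of the 9 genes, with Oasl2 the exception, and replicate 1 was the lowest for 7, with Irf7 and Ifitm3 the exceptions. Over all 6 libraries, KO-labelled replicate 3 was among the 2 highest for 9 of 9 genes and above every WT library for 7 of 9. As the mean over the 6 tested genes of log2(FPKM + 0.5) less the gene's own mean, it stood at 0.28, KO-labelled replicates 1 and 2 at -0.11 and 0.06, and WT replicates 1, 2 and 3 at -0.18, 0.02 and -0.07.

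The rest of the pathway was read from lists of 104 other genes, of which 93 were above 0 in some library and 59 passed the minimum. These lists too were chosen with earlier results of these data known. By limma 0 of the 59 passed an adjusted p of 0.05 and 1, Shisa5, had an unadjusted p under 0.05 (0.047). Over the fits that left out 1 library each, that p was 0.0556 to 0.128. In the limma fit without a minimum, 2 of the 93 had an unadjusted p under 0.05, against 1214 of 32400 genes. They were Shisa5 and Ddx60 (0.0204, from 12 to 41 reads per library). The log2 fold change was above 0 for 43 of the 59, with a median of 0.06, where 48.0% of all genes tested were above 0. That share of all genes moved with the scaling. With every library brought to the same FPKM sum (TPM scaling), the log2 fold change was above 0 for 44 of the 59 and 57.4% of all genes. With voom on the recovered reads it was above 0 for 43 of the 59 and 53.9% of all genes. Without KO-labelled replicate 3 it was above 0 for 36 of the 59, with a median of 0.02, where 48.9% of all genes were, and without WT replicate 1 for 35, also with a median of 0.02. The groups did not overlap for 6 of the 59, with the KO-labelled libraries above in each, where 4.17% of all genes tested were of that kind and 4.70% of the opposite kind. Over the 93 genes above 0 they did not overlap for 10, again with the KO-labelled libraries above. Of all 32400 genes above 0, 7.77% did not overlap in either direction.

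At the top of the pathway, interferon genes themselves were hardly detected. Of 11 ligand genes, 10, among them Ifng and 5 Ifna genes, had 0 reads in every library, which allows up to 3 reads per library for counting error alone, and Ifnb1 had 1 read in KO-labelled replicate 2. The receptor genes were well covered, with Ifnar1 at 7.41 ± 0.870 FPKM in WT against 7.57 ± 0.230 FPKM in the KO-labelled libraries and Ifnar2 at 3.28 ± 0.156 and 3.43 ± 0.0585 FPKM. The gene of the gamma receptor's second chain, Ifngr2, read 10.4 ± 0.363 and 11.0 ± 0.668 FPKM, and the kinase gene Jak1 24.5 ± 1.06 and 25.6 ± 0.627 FPKM. All of these overlapped between the groups, and 0 of the 9 genes of receptors, kinases and STATs outside the set that were tested had an unadjusted p under 0.05.

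The other interferon regulatory factors gave both signs. Irf1 stood at 1.40 ± 0.244 FPKM in WT against 1.56 ± 0.253 FPKM in the KO-labelled libraries, Irf2 2.95 ± 0.302 and 3.17 ± 0.172 FPKM, and Irf5, a factor of microglia and other myeloid cells, 1.22 ± 0.112 and 1.06 ± 0.177 FPKM. Of 8 tested genes of nucleic acid sensing, 7 had a log2 fold change above 0, with the endosomal RNA sensor Tlr7 at 0.514 ± 0.167 and 0.694 ± 0.117 FPKM and Tlr9, its DNA-sensing relative, at 0.473 ± 0.0584 and 0.600 ± 0.0646 FPKM with groups that did not overlap. The kinase gene Tbk1, downstream of the sensors, had the 1 value below 0, at 13.9 ± 1.30 and 12.8 ± 0.601 FPKM. Among brakes, Adar, which edits double-stranded RNA, read 18.2 ± 0.788 and 19.2 ± 0.678 FPKM, Samhd1, which breaks down nucleotides, 1.78 ± 0.0670 and 1.99 ± 0.410 FPKM, and the corepressor gene Irf2bp2 10.4 ± 2.47 and 10.9 ± 0.555 FPKM. The DNase gene Trex1 had 0 reads in every library. Overlap of its exons with other genes was not examined, so 0 reads need not mean that its RNA was absent.

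Of the other genes that work with ISG15, 0 of the 3 tested had an unadjusted p under 0.05. The conjugating enzyme gene Ube2l6 read 2.39 ± 0.432 FPKM in WT against 2.39 ± 0.309 FPKM in the KO-labelled libraries, the ligase gene Herc6 1.74 ± 0.412 and 1.68 ± 0.118 FPKM, and the ligase gene Trim25 1.20 ± 0.126 and 1.28 ± 0.238 FPKM. Among IFIT genes, whose products bind foreign RNA, Ifit1 read 0.734 ± 0.238 and 0.798 ± 0.239 FPKM, Ifit3 2.57 ± 0.298 and 2.30 ± 0.397 FPKM, Ifit3b 0.980 ± 0.0804 and 1.24 ± 0.168 FPKM, and Ifit1bl1 1.67 ± 0.369 and 1.55 ± 0.317 FPKM. Ifit3 and Ifit3b are near copies with opposite signs here, and how reads were divided between them is uncertain. Ifitm10 read 4.12 ± 0.211 and 3.91 ± 0.515 FPKM.

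The 14 tested genes of the broader type I list had log2 fold changes above 0 in 11. Lgals3bp, a secreted glycoprotein, read 3.62, 3.65 and 3.47 FPKM in WT against 4.14, 3.75 and 4.28 FPKM in the KO-labelled libraries, a log2 fold change of 0.16 (95% CI -0.01 to 0.32). For Shisa5 the levels were 16.4 ± 0.415 and 17.8 ± 0.626 FPKM, and the log2 fold change 0.12. Eif2ak2, the RNA-activated kinase PKR, read 0.764 ± 0.0391 and 0.893 ± 0.0621 FPKM. These 3 genes were named for the smallest p of the list, a choice that favours separated groups. In each the KO-labelled libraries lay wholly above WT, and the limma adjusted p was 0.999. Across the list that held for 3 of the 14, where 4.17% of all genes tested had the KO-labelled libraries wholly above. The classical markers Mx1 and Rsad2 lay under the minimum, at 0.0925 ± 0.0827 and 0.130 ± 0.0214 FPKM from 2 to 21 reads and at 0.321 ± 0.0481 and 0.340 ± 0.203 FPKM from 30 to 89 reads.

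Interferon gamma-induced genes were also highest in KO-labelled replicate 3, for 8 of the 11. Igtp, a GTPase gene of cell-autonomous immunity, read 2.55, 2.68 and 2.39 FPKM in WT against 2.86, 2.61 and 4.02 FPKM in the KO-labelled libraries. Gbp2, a guanylate-binding protein gene, read 0.801, 0.932 and 0.875 FPKM and 0.950, 1.02 and 1.63 FPKM, with the KO-labelled libraries wholly above WT. Without KO-labelled replicate 3 the log2 fold change went from 0.25 to 0.09 for Igtp and from 0.29 to 0.12 for Gbp2, neither passing the threshold at any setting. Irgm1 read 1.25 ± 0.132 and 1.44 ± 0.301 FPKM, and the chemokine gene Cxcl10 0.161 ± 0.124 and 0.234 ± 0.161 FPKM from 6 to 33 reads. Some other genes were chosen after their values were seen. In KO-labelled replicate 3 Iigp1 read 0.850 FPKM, and at most 0.313 FPKM in the other 5 libraries, and Oas2 0.521 and at most 0.229 FPKM. Uba7, the activating enzyme gene for ISG15, read 0.626 and at most 0.353 FPKM, and Trim30a 0.781 and at most 0.499 FPKM. Other listed genes were lowest in that library. Ifi35 read 0.760 FPKM there and at least 0.849 FPKM elsewhere, and Ccl5 0.0291 FPKM from 1 read. Oas1c, at 0.406 FPKM, and Ifit1bl1, at 1.28 FPKM, were lowest there by a small margin.

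Counted over genes, KO-labelled replicate 3 held the highest of the 6 values for 42 of the 93 other pathway genes above 0 and for 6 of the 9 interferon-stimulated genes, where it did so for 16.9% of the 32400 genes above 0. This count was made after the values were seen. Microglia markers were lowest in that library by their mean over 8 genes, at -0.11 log2 units from the genes' own means, and summed to 135 FPKM against 131 to 164 FPKM in WT. Endothelial markers were highest there, at 0.11 over 8 genes, with sums of 87.7 FPKM against 81.5 to 90.3 FPKM in WT and 78.2 to 87.7 FPKM in the KO-labelled libraries. T cell markers summed to 0.915 to 3.12 FPKM in WT against 1.60 to 2.62 FPKM in the KO-labelled libraries, most of it Cd4, and Cd3d had at most 1 read in any library. The 1 T cell marker past the minimum was lowest in WT replicate 3 (-0.89) and KO-labelled replicate 1 (-0.38). Striatal neuron markers were lowest in the same libraries (-1.06 and -0.59), and whether the T cell sum follows striatal tissue was not tested. B and plasma cell markers summed to 0.662 to 0.684 FPKM in WT against 0.619 to 1.01 FPKM in the KO-labelled libraries, highest in replicate 3. Neutrophil and monocyte markers summed to 0.314 to 1.95 and 0.431 to 3.45 FPKM, at 1.11 FPKM in KO-labelled replicate 3, with Ly6g at 0 throughout. Markers of plasmacytoid dendritic cells summed to 1.97 to 2.66 and 1.75 to 2.10 FPKM, with Cd300c at 0 throughout. The part of these cells in the levels above was not tested, and in RNA from whole tissue fewer cells of a type and less RNA per cell cannot be told apart.

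**Figure D4:**
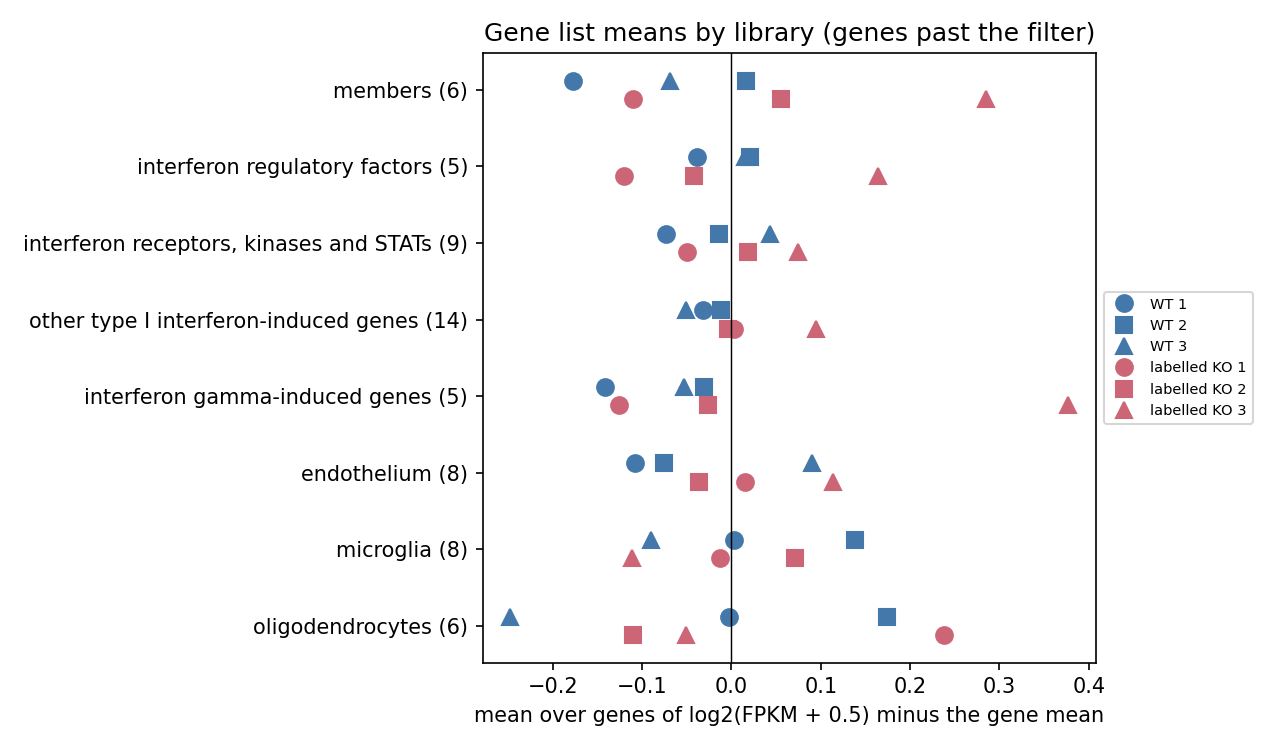
Mean over the tested genes of each list (number in brackets) of log2(FPKM + 0.5) minus the gene's own mean, per library, WT in blue and KO-labelled in red with circle, square and triangle for replicates 1, 2 and 3. KO-labelled replicate 3 stands at 0.28 for the interferon-stimulated genes and at 0.38 for interferon gamma-induced genes, and at -0.11 for microglia markers.

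Likeness to the mean of the 6 tested members was measured as Pearson's r, over the 6 libraries, with a gene's log2(FPKM + 0.5). The members themselves, each a part of that mean, had an r of 0.42 (Stat2), 0.56 (Bst2), 0.61 (Ifitm3), 0.79 (Isg15), 0.81 (Irf9) and 0.899 (Rtp4). Each was under the 0.9 used next, so a high r is likeness to the mean and not to every member. Of 15694 genes, 121 (0.771%) had an r of at least 0.9, among them 4 of the 59 other pathway genes: Gbp2, Gbp3, Irf1 and Ddx58, the gene of the RNA sensor RIG-I. Outside all lists the 5 closest were the signalling scaffold gene Card10 (r = 0.997), the scavenger receptor gene Stab1 (0.993), the endothelial adhesion receptor gene Adgrl4 (0.980), the chromatin remodelling gene Actl6a (0.979) and the long noncoding RNA gene Gm46430 (0.978). They were picked as the highest of many from only 6 libraries, so no p is given. Left with 4 libraries, without KO-labelled replicate 3 and WT replicate 1, r was 0.989, 0.952, 0.941, 0.830 and 0.912 for the 5 genes in the same order, and 0.60 for Gbp2, 0.93 for Gbp3, 0.78 for Irf1 and 0.09 for Ddx58.

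**Figure D5:**
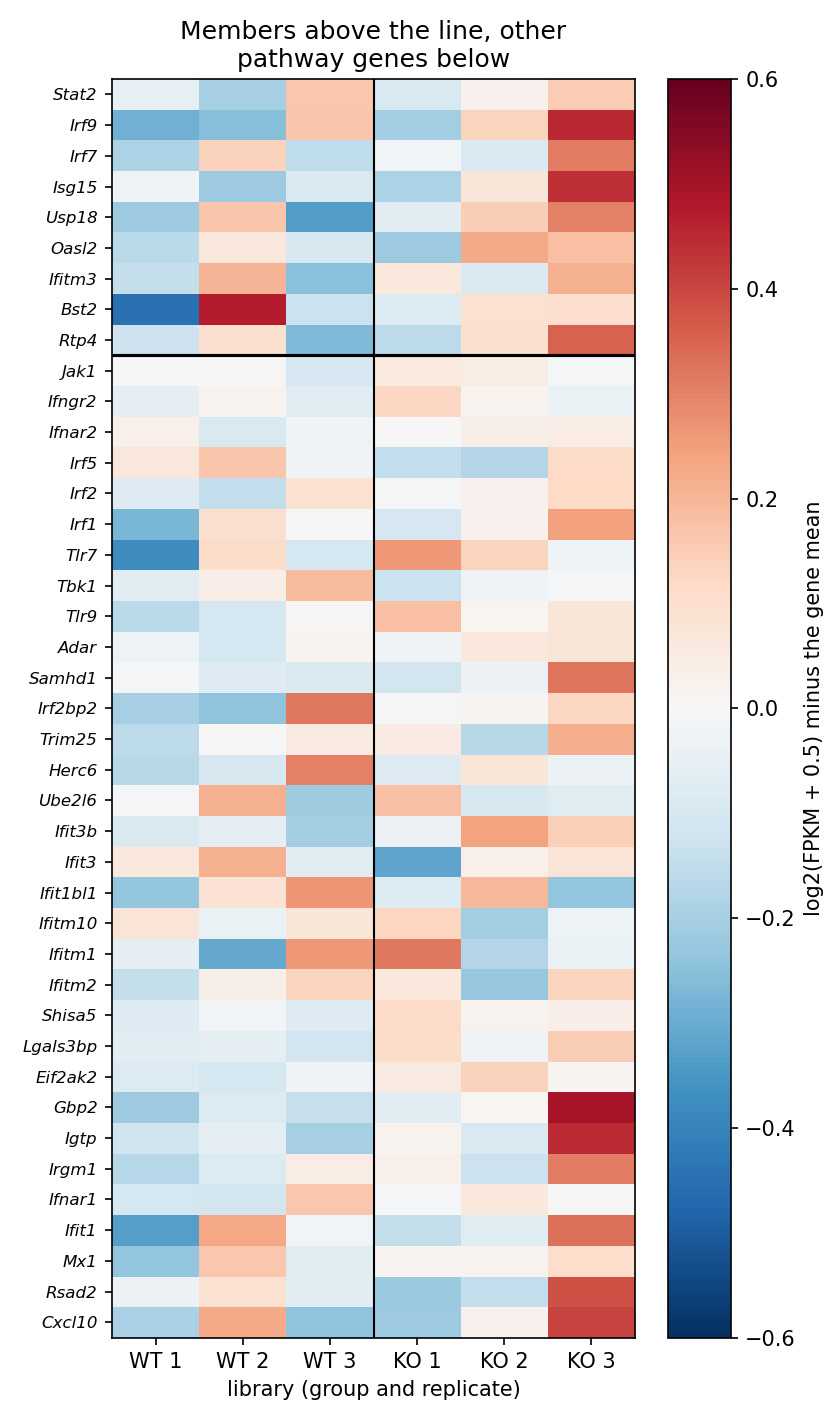
Log2(FPKM + 0.5) minus the gene's own mean for the 9 interferon-stimulated genes (above the horizontal line) and other named interferon pathway genes with at least 20 reads in a library (below it), in 3 WT and 3 KO-labelled libraries; red is higher and blue lower. The KO 3 column is red for Irf9, Isg15, Irf7, Rtp4, Gbp2 and Igtp, and Bst2 is lowest in WT 1 and highest in WT 2.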

How the data were processed

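FPKM were the authors' deposited unit, in 1 table of 54532 genes. The submitters' processing notes name Bowtie and mm10, without versions, and, per the labels' protocols, libraries were made with an Illumina TruSeq RNA kit. No source used here gives the counter, its use of strand or the annotation. Of the rows, 98.3% had the start and end of GENCODE M21, used for exon overlaps. Reads were recovered by multiplying FPKM by gene length, which left whole numbers (within 0.001) of a step per library for 100% of values above 0. A minimum mean of 0.5 FPKM was set, and limma 3.58.1 (R 4.3.3) was run on log2(FPKM + 0.5), with a variance trend, no block, two-sided, Benjamini-Hochberg adjusted over all genes. Genes below that minimum came from the same fit without it. Pathway genes were named as the 3 smallest p per list plus 12 genes in any case. Gbp3, Ddx58, Ddx60, Iigp1, Oas2, Oas1c, Uba7, Trim30a, Ifi35, Ccl5, Rps27rt and Gm47283 were chosen after their values were seen. Members and lists were chosen with earlier results of these data known. A few pathway genes are not reported here. Plots used matplotlib 3.10.9.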

Additional observations from a re-analysis of the deposited data

How the results depend on the processing

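Of the 9 interferon-stimulated genes, 0 passed an adjusted p of 0.05 in limma or voom under any of the settings run, the smallest adjusted p of any being 0.27, for Irf9 (0.56) without WT replicate 3 and KO-labelled replicate 1 together, an alternative chosen after the data were seen. Their log2 fold changes kept their sign for 7 of 9. Over the fits that left out 1 library each, Stat2 ran from -0.029 (without WT replicate 2, and -0.0045 without KO-labelled replicate 3) to 0.15, Bst2 from -0.13 to 0.32, Isg15 from 0.05 to 0.36, Irf9 from 0.09 to 0.42, Ifitm3 from 0.03 to 0.26, Rtp4 from 0.07 to 0.32, Irf7 from 0.01 to 0.24, Usp18 from 0.15 to 0.40 and Oasl2 from 0.04 to 0.27. Isg15, Irf9, Rtp4 and Irf7 were lowest without KO-labelled replicate 3, Usp18 and Ifitm3 without WT replicate 3, and Oasl2 without KO-labelled replicate 2. Unadjusted limma p under 0.05 were 0.043 for Bst2, 0.0408 for Ifitm3 and, with no minimum, 0.0384 for Usp18 without WT replicate 2, 0.041 for Isg15 without KO-labelled replicate 1, and for Irf9 0.0492 with sample weights, 0.0489 with the replicate block and 0.00931 without that pair. For Shisa5 the limma p was 0.0197 with TPM scaling, 0.0305 with no minimum and 0.0489 at a minimum of 1 FPKM. It was 0.0597 with sample weights, 0.0706 with the replicate block, 0.0827 with no variance trend and 0.176 without the pair. With voom the p of Shisa5 was 0.042, and 0.0722 with voom and no minimum. Among all genes, 1 passed with voom and no minimum (Rps27rt) and 1 without that pair of libraries (Gm47283), both chosen after the data were seen, and 0 in the other fits. Genes at an unadjusted p under 0.05 numbered 599 of 15694 in the reported fit and 1214 of 32400 with no minimum (1250 with voom). Of the same 15694 genes they numbered 1420 with sample weights, 1023 without WT replicate 3, 901 without KO-labelled replicate 1 and 2092 without both. With the replicate block 0 genes passed and 837 had an unadjusted p under 0.05. Same-numbered libraries deviated together with correlations of 0.082, 0.013 and 0.21. WT replicates 1 and 3 deviated most like the KO-labelled library of the same number, and WT replicate 2 most like KO-labelled replicate 1 (0.113). The labels state no pairing, and these correlations cannot decide whether same-numbered libraries share more than a number. Rtp4 has no value at a minimum of 1 FPKM. Reads per library were as few as 14 to 51 for Usp18. In each group the coefficient of variation was above that of counting alone for Usp18, Irf7, Rtp4, Oasl2, Irf9, Stat2 and Ifitm3. For Bst2 it was above in WT only, and for Isg15 in the KO-labelled libraries only.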
